A study of Mus musculus with 34 samples.

Results

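The genes described here are 37 members of the nuclear receptor superfamily in the mouse testis. They were taken from a list of receptor names that leaves out the retinoic acid receptors, the retinoid X receptors, the androgen receptor, Nr0b1, Nr5a1 and Nr4a1. A probe was found for 36 of the 37 among the 33194 gene names of the array, and the mineralocorticoid receptor Nr3c2 had none here. Each gene was read from the probe with its highest mean signal over all arrays. Its level is the log2 of the scanner's processed signal minus the 75th percentile of that array, so a level of 0 lies at that percentile and an increase of 1 is a doubling of signal. Levels of different genes are not compared, because each probe has its own brightness.

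The study asked how gene expression in Sertoli cells, the somatic nurse cells of the seminiferous tubule, changes with the stage of the tubule and with retinoic acid signalling. It used 34 one-colour Agilent arrays, 1 per RNA sample, in 17 groups of 2, which the submitters call biological duplicates. All mice were C57BL6/j aged 6 to 8 weeks. Nothing in the labels says whether a duplicate was a separate animal, a pool or a separate culture, so p-values measure the spread between these samples.

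The groups were whole testes, Sertoli cells sorted directly by FACS from wild-type testes, Sertoli cells sorted in the same way from testes lacking Nanos3 (labelled Nanos3KO), cultured wild-type Sertoli cells, the same cultures with retinoic acid, and dissected seminiferous tubules. The labels give retinoic acid at 1 mM for 24 h, a unit that could not be checked here. Tubules fell into 4 stage groups that run from I-III over IV-VI and VII-VIII to IX-XII, and for the third of these the sample titles write VI-VIII where the source names write VII-VIII. Each stage was sampled untreated, 5 days after a lentivirus carrying Venus, a fluorescent protein that serves as the control, and 5 days after a lentivirus carrying dnRARa, a name usually read as a dominant-negative retinoic acid receptor alpha. Neither the marker used for sorting, nor the promoter of the viruses, nor the cells they reached are given in the labels.

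The labels were checked against the targeted genes. Nanos3 stood at -3.21 and -4.44 on the sorted wild-type arrays and at -7.11 and -7.27, not well above background, on the knockout arrays (difference -3.37, SE 0.36, adjusted p = 0.000291, limma). Rara was higher in dnRARa than in Venus tubules by 0.65 (SE 0.15, adjusted p = 0.0108, limma), and whether its probe reads the construct was not tested. Between 54.89% and 74.42% of the spots of an array were well above background. The arrays came from 10 slides scanned on 5 days. Knockout and wild-type cells, cultured and sorted cells, Venus and untreated tubules, and dnRARa and Venus tubules lay on different slides, so in these comparisons slide and group cannot be told apart. Retinoic acid and vehicle, sorted cells and whole testes, and the stages within each virus and replicate shared a slide. In whole testes, tubules and sorted cells, fewer cells of a type and less RNA per cell cannot be told apart.

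Nuclear receptors are transcription factors, most of which bind a small fat-soluble ligand and recruit coactivators or corepressors to their target genes. Many of them, among them the receptors for thyroid hormone, vitamin D, fatty acids, oxysterols and bile acids, act as heterodimers with the retinoid X receptors on repeated half-sites related to AGGTCA. Others bind DNA alone or as homodimers, and several have no known physiological ligand and are called orphan receptors. In the testis, thyroid hormone receptor alpha is known from the maturation of Sertoli cells, estrogen receptors from the efferent ducts and somatic cells, and the germ cell nuclear factor Nr6a1 and the testicular receptors Nr2c1 and Nr2c2 from spermatocytes and spermatids.

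Of the 36 receptors with a probe, 16 were well above background on all 34 arrays. These were the thyroid hormone receptor Thra, the fatty acid receptors Ppara and Pparg, the clock receptors Nr1d1, Nr1d2 and Rora, the oxysterol receptors Nr1h2 and Nr1h3, the vitamin D receptor Vdr, the orphans Nr2c1, Nr2c2, Nr2f2, Nr2f6 and Nr6a1, the estrogen-related receptor Esrra and the early-response receptor Nr4a2. Another 16 passed that mark in duplicate in 1 or more groups but not everywhere. These were Esr1, Esrrb, Esrrg, Hnf4a, Hnf4g, Nr0b2, Nr1h4, Nr1i2, Nr1i3, Nr2e1, Nr2e3, Nr3c1, Nr4a3, Nr5a2, Ppard and Thrb. The remaining 4, the estrogen receptor Esr2, the progesterone receptor Pgr, the orphan Nr2f1 and the retinoid-related orphan Rorb, reached that mark on both arrays of no group, so for them only a bound can be given. Esr2 was well above background on 1 cultured vehicle array (-6.32), Nr2f1 on 1 untreated array of stages VII-VIII (-3.58), Rorb on 1 cultured vehicle array (-6.14) and 1 untreated array of stages IX-XII (-4.01), and Pgr on none.

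**Figure D1:**
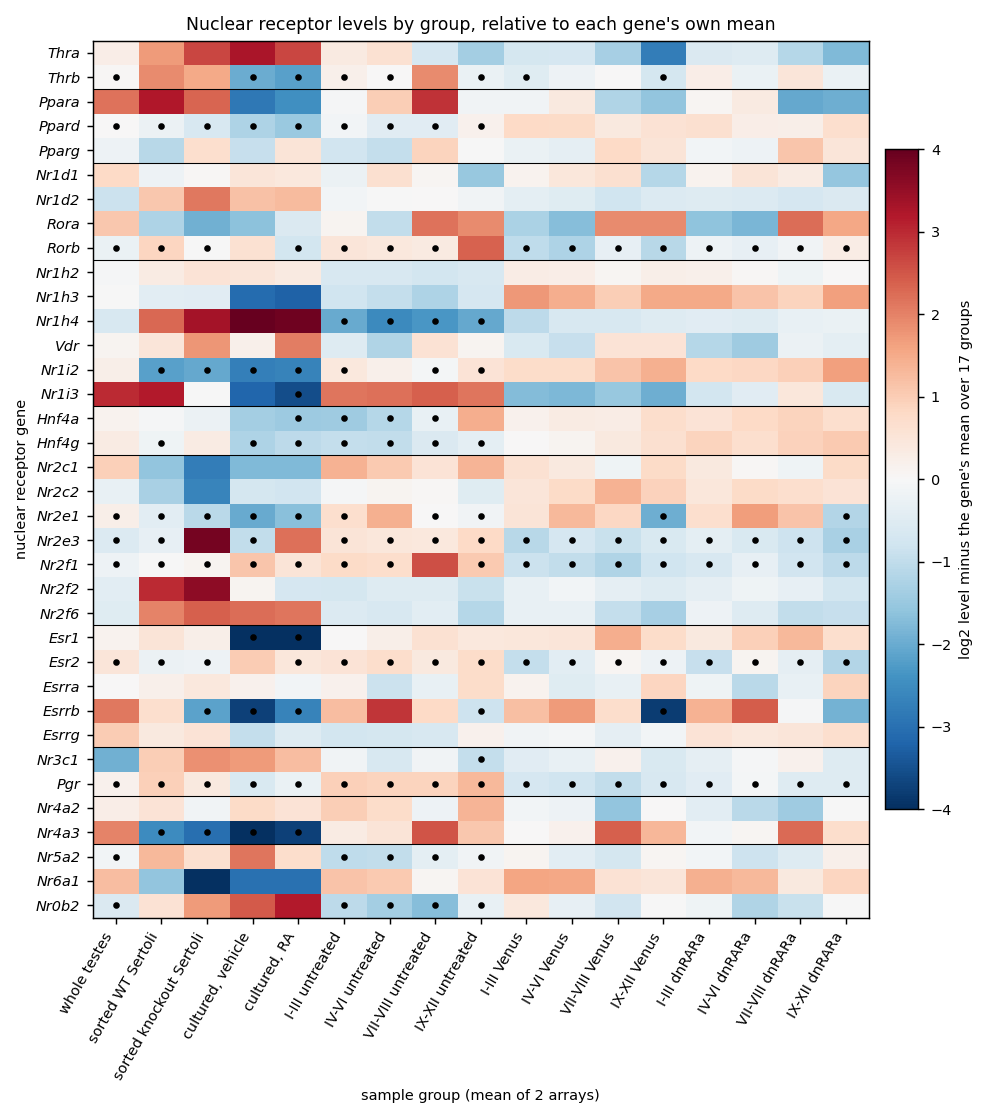
Levels of the 36 nuclear receptors with a probe in the 17 groups, each row centred on its own mean over the groups and coloured by the difference from it (log2). Colours saturate at 4 and black dots mark groups in which no array was well above background. Rora, Pparg and Nr4a3 are above their mean at stages VII-VIII in all 3 arms, and Nr2f2, Nr2f6 and Nr1h4 are above theirs in sorted Sertoli cells.

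Many of the receptors differed between stages of the tubule. Rora, Vdr, Pparg and Nr4a3 were higher at stages VII-VIII than at IV-VI in both untreated and Venus tubules, by 1.46 to 3.59 for Rora, Vdr and Nr4a3 and by 1.16 for Pparg in the Venus tubules (log2). Nr6a1, Nr4a2 and Nr2c1 were lower at VII-VIII in both arms. From VII-VIII to IX-XII, Nr1d1 fell and Nr4a2, Esrra, Nr2c1 and Nr1h3 rose in both arms. Among the 4 stage groups, 16 of 23 receptors tested differed in untreated tubules, against 69.2% of all genes tested, 16 of 31 in Venus tubules, against 53.9%, and 18 of 30 in dnRARa tubules, against 55% (limma, F test, adjusted p under 0.05). The receptors were therefore called about as often as genes in general. Of 23 receptors tested in all 3 arms 15 were called in each, against 52.3% of genes, and of 31 tested in any arm 19 were called in 1 or more, against 67.1%.

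Between the neighbouring stage groups, 12 of 22 receptors were called for VII-VIII against IV-VI in untreated tubules, 7 higher and 5 lower, against 42.4% of all genes (22.1% higher and 20.3% lower). In Venus tubules 11 of 30 were called, 5 higher and 6 lower, against 33.1% (15.9% and 17.2%). Of these, 8 were called in both arms, 7 of them in the same direction, which is 58.3% of the untreated and 63.6% of the Venus calls, against 69.4% and 73% over all genes. Ppara was called in opposite directions. For IX-XII against VII-VIII, 13 of 22 were called in untreated tubules, 5 higher and 8 lower, against 49.9% of genes (25.2% and 24.7%). In Venus tubules 9 of 31 were called, 4 higher and 5 lower, against 36.5% (18.7% and 17.8%). The 5 receptors called in both arms moved in the same direction, which is 38.5% of the untreated and 55.6% of the Venus calls, against 69.9% and 77.9% over all genes. The untreated arrays of stages IV-VI and VII-VIII lay on different slides, so there slide and stage cannot be told apart, while both Venus slides held all 4 stage groups.

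Among the clock receptors, Rora activates the clock genes that the Rev-erb receptors Nr1d1 and Nr1d2 repress. Rora stood in untreated tubules at 1.09 and -0.03 at stages I-III, 0.24 and -1.36 at IV-VI, 2.59 and 2.64 at VII-VIII, and 2.31 and 2.35 at IX-XII. In Venus tubules it stood at -0.75 and -0.93 at stages I-III, -1.05 and -1.48 at IV-VI, 2.38 and 2.25 at VII-VIII, and 2.39 and 2.29 at IX-XII. Every array of the 2 later stage groups lay above every array of the 2 earlier ones in both arms, although the 2 untreated replicates of stages IV-VI were far apart. Rora rose from IV-VI to VII-VIII by 3.18 (SE 0.47, adjusted p = 9.63e-05) untreated and by 3.59 (SE 0.48, adjusted p = 5.64e-05) with Venus. On the 2 Venus slides taken separately the rise was 3.44 and 3.74, and the second Rora probe gave 3.28 untreated and 3.45 with Venus. From VII-VIII to IX-XII Rora differed by 0.02 (SE 0.48, adjusted p = 0.981) with Venus, which was not called.

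Nr1d1, or Rev-erb alpha, a repressor of Arntl transcription, stood in untreated tubules at -1.28 and -0.72 at stages I-III, -0.31 and 0.04 at IV-VI, -0.71 and -0.68 at VII-VIII, and -1.71 and -2.91 at IX-XII. Its Venus arrays stood at -0.58 and -0.72 at stages I-III, -0.29 and -0.36 at IV-VI, -0.33 and 0.03 at VII-VIII, and -2.09 and -1.73 at IX-XII. The arrays of stages IX-XII were the lowest of each arm. The fall from VII-VIII to IX-XII was -1.62 (SE 0.30, adjusted p = 0.000408) untreated and -1.76 (SE 0.31, adjusted p = 0.00036) with Venus. The array holds 3 Nr1d1 probes, and the other two differed by -0.44 and 0.19 in the Venus comparison and by -0.01 and -0.10 in the untreated one, so the fall was seen by the brightest probe only. The end of the Nr1d1 gene overlaps that of Thra on the opposite strand, and which of these transcripts each probe reads was not tested. Nr1d2, or Rev-erb beta, was tested in all 3 arms and called in none.

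Vdr, the vitamin D receptor, stood in untreated tubules at -1.0 and -0.77 at stages I-III, -1.59 and -1.59 at IV-VI, 0.11 and 0.28 at VII-VIII, and -0.40 and -0.12 at IX-XII. Venus tubules had Vdr at -1.04 and -0.90 at stages I-III, -1.24 and -1.34 at IV-VI, 0.24 and 0.10 at VII-VIII, and 0.16 and 0.21 at IX-XII. The 4 later arrays lay above the 4 earlier arrays in each arm without overlap. Vdr rose from IV-VI to VII-VIII by 1.78 (SE 0.15, adjusted p = 5.94e-07) untreated and by 1.46 (SE 0.15, adjusted p = 6.06e-06) with Venus, with 1.49 and 1.44 on the 2 Venus slides. From VII-VIII to IX-XII it fell by 0.45 (SE 0.15, adjusted p = 0.0177) untreated, and the Venus difference of 0.01 (SE 0.15, adjusted p = 0.971) was not called. The untreated fall was lost without VII-VIII untreated replicate 2 or IX-XII untreated replicate 1 (adjusted p = 0.13 to 0.13).

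The oxysterol receptors, which switch on cholesterol efflux, moved less. Nr1h3, or LXR alpha, stood at -1.54 and -1.21 at stages I-III, -1.53 and -1.53 at IV-VI, -1.71 and -1.87 at VII-VIII, and -1.32 and -1.16 at IX-XII in untreated tubules. It stood at 1.11 and 1.19 at stages I-III, 0.94 and 0.84 at IV-VI, 0.46 and 0.37 at VII-VIII, and 0.96 and 0.91 at IX-XII in Venus tubules. Stages VII-VIII were the lowest in both arms, and all Venus arrays lay above all untreated ones. From VII-VIII to IX-XII Nr1h3 rose by 0.55 (SE 0.11, adjusted p = 0.000722) untreated and by 0.52 (SE 0.11, adjusted p = 0.00188) with Venus. Nr1h2, or LXR beta, was called among stages in dnRARa tubules (adjusted p = 0.02), where it stood at 1.12 and 1.08 at stages I-III, 1.02 and 0.88 at IV-VI, 0.75 and 0.70 at VII-VIII, and 1.02 and 0.82 at IX-XII, lowest at VII-VIII. It missed the threshold untreated (adjusted p = 0.801) and with Venus (adjusted p = 0.197). The Nr1h2 call was lost without I-III dnRARa replicate 1, I-III dnRARa replicate 2, VII-VIII dnRARa replicate 1 or VII-VIII dnRARa replicate 2 (adjusted p = 0.053 to 0.0943). Its dnRARa effect was not called as differing between stages (adjusted p = 1).

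Of the PPARs, Pparg, which promotes lipid storage, stood in untreated tubules at -2.02 and -2.54 at stages I-III, -2.26 and -2.71 at IV-VI, -0.61 and -0.65 at VII-VIII, and -1.48 and -1.60 at IX-XII. In Venus tubules the values were -1.72 and -1.87 at stages I-III, -1.86 and -1.92 at IV-VI, -0.69 and -0.77 at VII-VIII, and -1.0 and -1.03 at IX-XII. Stages VII-VIII were the highest in both arms, with IX-XII between them and the earlier stages. Pparg rose from IV-VI to VII-VIII by 1.85 (SE 0.15, adjusted p = 5.98e-07) untreated and by 1.16 (SE 0.16, adjusted p = 5.38e-05) with Venus. It then fell by 0.91 (SE 0.15, adjusted p = 0.000166) at IX-XII in untreated tubules, where the Venus difference of -0.29 (SE 0.16, adjusted p = 0.17) was not called.

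Ppara, which drives fatty acid oxidation, had opposite stage differences in the untreated and Venus arms. The untreated arrays stood at -1.75 and -2.63 at stages I-III, -0.84 and -1.5 at IV-VI, 1.05 and 0.47 at VII-VIII, and -1.69 and -2.88 at IX-XII. Venus arrays stood at -2.10 and -2.47 at stages I-III, -1.72 and -1.81 at IV-VI, -3.45 and -3.25 at VII-VIII, and -3.84 and -3.58 at IX-XII, and dnRARa arrays at -2.18 and -1.97 at stages I-III, -1.71 and -1.89 at IV-VI, -4.03 and -4.36 at VII-VIII, and -4.11 and -4.09 at IX-XII. Stages VII-VIII were thus the highest group in untreated tubules, while VII-VIII and IX-XII were the lowest groups with either virus. The difference of VII-VIII from IV-VI was 1.93 (SE 0.35, adjusted p = 0.000431) untreated and -1.59 (SE 0.35, adjusted p = 0.00284) with Venus. The difference between the arms in this step was called for Ppara alone of 30 receptors, against 0.523% of all genes, and that in the step from VII-VIII to IX-XII for Ppara alone of 31, against 1.32% (limma). With only the arrays compared in the model neither was called. Ppard, the third PPAR, was not well above background on any untreated array and was not called in Venus tubules (adjusted p = 0.935).

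Thra, the thyroid hormone receptor of the Sertoli cell lineage, stood in untreated tubules at 1.40 and 0.36 at stages I-III, 1.39 and 0.88 at IV-VI, 0.11 and -0.37 at VII-VIII, and -0.48 and -1.17 at IX-XII. With Venus it stood at -0.19 and -0.13 at stages I-III, -0.20 and -0.07 at IV-VI, -1.06 and -0.56 at VII-VIII, and -2.35 and -2.14 at IX-XII. Stages IX-XII were the lowest in both arms. The fall was called by limma between IV-VI and VII-VIII in untreated tubules (-1.27 (SE 0.32, adjusted p = 0.00483)). In Venus tubules it was called between VII-VIII and IX-XII (-1.44 (SE 0.32, adjusted p = 0.00263)). The mean fell at the other step of each arm as well, without a call, and by -0.85 and -0.49 on the 2 Venus slides. The difference between the arms in these steps was not called (adjusted p = 0.777 and adjusted p = 0.635). The untreated Thra call was lost without IV-VI untreated replicate 1 or VII-VIII untreated replicate 2 (adjusted p = 0.0575 to 0.0593). A second Thra probe gave -1.36 for the called step in Venus tubules and -0.65 for the called step in untreated tubules. Thrb, its paralog, stood in untreated tubules at -5.24 and -6.29 at stages I-III, -4.83 and -7.05 at IV-VI, -3.93 and -4.18 at VII-VIII, and -6.07 and -6.38 at IX-XII, and of these arrays the 2 of VII-VIII were well above background. Its untreated signal there was at least 1.97-fold that at IV-VI (adjusted p = 0.007) and at least 1.55-fold that at IX-XII (adjusted p = 0.00212), and no stage difference was called in Venus tubules. The Thrb difference from IV-VI was lost without IV-VI untreated replicate 2 (adjusted p = 0.122). Such a bound sets the brighter group's mean against the mean, over the dimmer group's arrays, of the higher of the lowest signal well above background and the gene's own signal.

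The estrogen-related receptors are orphans that regulate energy metabolism, and 2 of the 3 followed stage. Esrra stood at 1.55 and 1.69 at stages I-III, 0.50 and 0.66 at IV-VI, 1.10 and 1.21 at VII-VIII, and 1.86 and 2.51 at IX-XII in untreated tubules. In Venus tubules Esrra stood at 1.56 and 1.60 at stages I-III, 1.03 and 0.90 at IV-VI, 1.24 and 1.06 at VII-VIII, and 2.30 and 2.32 at IX-XII. The highest group of each arm was IX-XII and the lowest IV-VI. Esrra rose from VII-VIII to IX-XII by 1.03 (SE 0.18, adjusted p = 0.000201) untreated and by 1.16 (SE 0.18, adjusted p = 0.000141) with Venus. Esrrb ran the other way and stood with Venus at -3.40 and -3.68 at stages I-III, -2.96 and -3.14 at IV-VI, -5.05 and -3.08 at VII-VIII, and -8.45 and -8.63 at IX-XII, the last pair not well above background. Its signal at VII-VIII was at least 5.75-fold that at IX-XII (adjusted p = 0.000456), a bound of 11.4-fold without VII-VIII Venus replicate 1 and of 2.91-fold without replicate 2. The untreated Esrrb arrays stood at -4.25 and -2.80 at stages I-III, -2.60 and -1.18 at IV-VI, -3.29 and -4.60 at VII-VIII, and -4.81 and -6.36 at IX-XII, also highest at IV-VI, and 1 array of VII-VIII and both of IX-XII were not well above background. Esrrg was tested in all 3 arms and called in none.

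The estrogen receptor Esr1 stood with Venus at -4.04 and -3.94 at stages I-III, -3.98 and -3.92 at IV-VI, -3.02 and -2.93 at VII-VIII, and -3.75 and -3.67 at IX-XII, highest at VII-VIII. Esr1 rose from IV-VI to VII-VIII by 0.97 (SE 0.16, adjusted p = 0.00028) in Venus tubules. Its second probe gave -0.42 for the same comparison, so the direction depends on the probe. The untreated Esr1 arrays stood at -4.21 and -4.64 at stages I-III, -4.19 and -4.19 at IV-VI, -3.84 and -3.83 at VII-VIII, and -4.27 and -3.74 at IX-XII, where the step from IV-VI to VII-VIII and that to IX-XII were not called. Nr3c1, the glucocorticoid receptor, was not called among stages in any arm, although the untreated signal of its chosen probe was lower at IX-XII, where it was not well above background, than at VII-VIII by at least 1.42-fold (adjusted p = 0.0318). Another Nr3c1 probe, well above background on all 4 of these arrays, differed by 0.36. With the mean of its detected probes that Nr3c1 difference was 0.0. The Nr3c1 call was lost without VII-VIII untreated replicate 1, VII-VIII untreated replicate 2, IX-XII untreated replicate 1 or IX-XII untreated replicate 2 (adjusted p = 0.0712 to 0.125).

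Both NR4A receptors, which are induced rapidly by many stimuli, followed stage in opposite directions. Nr4a3 stood in untreated tubules at -3.64 and -4.77 at stages I-III, -3.76 and -4.29 at IV-VI, -2.04 and -2.02 at VII-VIII, and -2.18 and -4.76 at IX-XII, where the second arrays of I-III and IX-XII were not well above background. Venus tubules had Nr4a3 at -4.52 and -4.51 at stages I-III, -4.56 and -4.18 at IV-VI, -2.22 and -2.08 at VII-VIII, and -3.37 and -3.04 at IX-XII. Stages VII-VIII were the highest in both arms. The rise from IV-VI to VII-VIII was 2.0 (SE 0.55, adjusted p = 0.00864) untreated and 2.22 (SE 0.56, adjusted p = 0.00644) with Venus, with 2.33 and 2.10 on the 2 Venus slides. The untreated call was lost without IV-VI untreated replicate 2 (adjusted p = 0.068). The Venus call was lost without IV-VI Venus replicate 1 (adjusted p = 0.0514). Nr4a2 stood in untreated tubules at -2.0 and -2.15 at stages I-III, -2.43 and -2.27 at IV-VI, -3.20 and -3.37 at VII-VIII, and -2.11 and -1.34 at IX-XII. With Venus the Nr4a2 values were -3.18 and -3.19 at stages I-III, -3.08 and -3.44 at IV-VI, -4.77 and -4.55 at VII-VIII, and -3.0 and -3.10 at IX-XII. Stages VII-VIII were the lowest in both arms, by -0.93 (SE 0.20, adjusted p = 0.0017) untreated and -1.41 (SE 0.20, adjusted p = 0.000109) with Venus against IV-VI. Nr4a2 was again higher at IX-XII than at VII-VIII by 1.56 (SE 0.20, adjusted p = 1.56e-05) untreated and 1.61 (SE 0.20, adjusted p = 2.38e-05) with Venus.

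Among the orphans of germ cells, Nr6a1, or germ cell nuclear factor, stood in untreated tubules at 1.77 and 1.88 at stages I-III, 1.89 and 1.55 at IV-VI, 0.82 and 0.67 at VII-VIII, and 1.43 and 1.01 at IX-XII. Venus tubules had Nr6a1 at 2.34 and 2.16 at stages I-III, 2.34 and 2.10 at IV-VI, 1.15 and 1.40 at VII-VIII, and 1.11 and 1.21 at IX-XII. All arrays of the later stages lay below all arrays of the earlier ones in both arms. The fall from IV-VI to VII-VIII was -0.97 (SE 0.18, adjusted p = 0.000636) untreated and -0.95 (SE 0.19, adjusted p = 0.00122) with Venus. Nr2c1, the testicular receptor 2, stood at 1.77 and 1.71 at stages I-III, 1.53 and 1.24 at IV-VI, 0.95 and 0.82 at VII-VIII, and 1.92 and 1.51 at IX-XII untreated. The Venus values of Nr2c1 were 1.02 and 0.90 at stages I-III, 0.87 and 0.61 at IV-VI, 0.20 and 0.19 at VII-VIII, and 1.13 and 1.09 at IX-XII. Stages VII-VIII were the lowest in each arm, -0.50 (SE 0.15, adjusted p = 0.0144) and -0.54 (SE 0.15, adjusted p = 0.0128) against IV-VI. The untreated Nr2c1 fall was lost without IV-VI untreated replicate 1 or VII-VIII untreated replicate 2 (adjusted p = 0.0981 to 0.142). The Venus Nr2c1 fall was lost without IV-VI Venus replicate 1, VII-VIII Venus replicate 1 or VII-VIII Venus replicate 2 (adjusted p = 0.0597 to 0.127). At IX-XII Nr2c1 was higher again by 0.82 (SE 0.15, adjusted p = 0.000315) and 0.91 (SE 0.15, adjusted p = 0.000254). Nr2c2, the related testicular receptor 4, was called among stages in no arm.

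Nr2f6, a COUP-TF family repressor, stood in untreated tubules at -0.06 and 0.09 at stages I-III, -0.24 and 0.06 at IV-VI, -0.03 and 0.28 at VII-VIII, and -0.81 and -0.38 at IX-XII. With Venus it stood at 0.10 and 0.39 at stages I-III, 0.07 and 0.46 at IV-VI, -0.43 and -0.39 at VII-VIII, and -0.85 and -0.68 at IX-XII. Stages IX-XII were the lowest in both arms. Nr2f6 fell by 0.72 (SE 0.21, adjusted p = 0.0116) from VII-VIII to IX-XII untreated and by 0.68 (SE 0.22, adjusted p = 0.0268) from IV-VI to VII-VIII with Venus. The untreated Nr2f6 fall was lost without VII-VIII untreated replicate 2 or IX-XII untreated replicate 1 (adjusted p = 0.106 to 0.109). The Venus Nr2f6 fall was lost without IV-VI Venus replicate 2, VII-VIII Venus replicate 1 or VII-VIII Venus replicate 2 (adjusted p = 0.0874 to 0.221). Nr2e1, the tailless homolog, stood with Venus at -6.62 and -5.84 at stages I-III, -5.38 and -5.51 at IV-VI, -6.50 and -5.33 at VII-VIII, and -8.71 and -8.64 at IX-XII, and its signal at VII-VIII was at least 1.59-fold that at IX-XII (adjusted p = 0.00302), where neither array was well above background. Without VII-VIII Venus replicate 1 the Nr2e1 bound was 2.39-fold. The Nr2e1 call was lost without VII-VIII Venus replicate 2 (adjusted p = 0.0501). Nr0b2, a receptor without a DNA-binding domain that inhibits its partners, was called among stages in dnRARa tubules, at -5.25 and -6.09 at stages I-III, -6.03 and -7.39 at IV-VI, -6.53 and -6.27 at VII-VIII, and -5.49 and -5.52 at IX-XII (adjusted p = 0.0259), and 3 of these 8 arrays were not well above background. It missed the threshold with Venus (adjusted p = 0.0665) and was too dim to test untreated. The Nr0b2 call was lost without IX-XII dnRARa replicate 1 or IX-XII dnRARa replicate 2 (adjusted p = 0.0679 to 0.0708).

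The other receptors tested were not called among the 4 stage groups by the F test in any arm. Of the steps between neighbouring groups, only the untreated Nr3c1 step to IX-XII given above was called for them. Nr2f2, Nr1i3, Nr2c2, Nr1d2, Esrrg and Nr3c1 were tested in all 3 arms. Hnf4a, Hnf4g, Nr1h4, Nr1i2, Nr5a2 and Ppard were tested with Venus only or with both viruses, since too few untreated arrays were above background. A result that misses the threshold with 2 arrays per group does not show that the levels were equal. With normexp background correction, which subtracts a modelled local background, calls were lost for VII-VIII against IV-VI untreated for Esrra, Esrrb, Nr2c1, Nr4a2, Nr4a3 and Thrb, and with Venus for Esr1, Nr1h3 and Nr4a2. For IX-XII against VII-VIII they were lost untreated for Nr1h3, Nr3c1, Nr4a2, Nr4a3, Thrb and Vdr, and with Venus for Esr1, Esrrb, Nr1h3 and Nr2e1.

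Markers of other cells moved with stage as well, given here as summed levels (the log2 of the added signals of a list's markers). That of 5 spermatogonial markers was 3.66 and 3.51 at IV-VI and 6.01 and 6.16 at VII-VIII untreated, and 3.63 and 3.60 and then 5.35 and 4.96 with Venus. Of these markers 2 of 5 were called higher in each arm. The same sum was 4.29 and 4.61 in sorted wild-type cells and 5.35 and 4.44 in sorted knockout cells. In the knockout cells 3 and 2 of the 5 markers were above background, so the sum is not read as an amount of spermatogonia. The summed level of 2 erythroid markers went from 1.18 and 1.33 to -2.73 and -2.09 untreated and from 2.33 and 2.37 to -2.41 and -2.39 with Venus. Of these 2 markers 1 was called lower in each arm. The summed level of 10 Sertoli markers was lower at IX-XII (3.52 and 3.52 untreated, 4.21 and 4.22 with Venus) than at VII-VIII (4.52 and 4.51 and 4.92 and 5.05). That of 6 spermatid markers spanned 9.34 to 10.42 untreated and 9.71 to 10.17 with Venus, with 4 and 2 of the 6 called among stages, and that of 6 Leydig markers 0.92 to 2.66 and 1.33 to 3.32. The part of these lists in the receptors' stage differences was not tested.

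**Figure D2:**
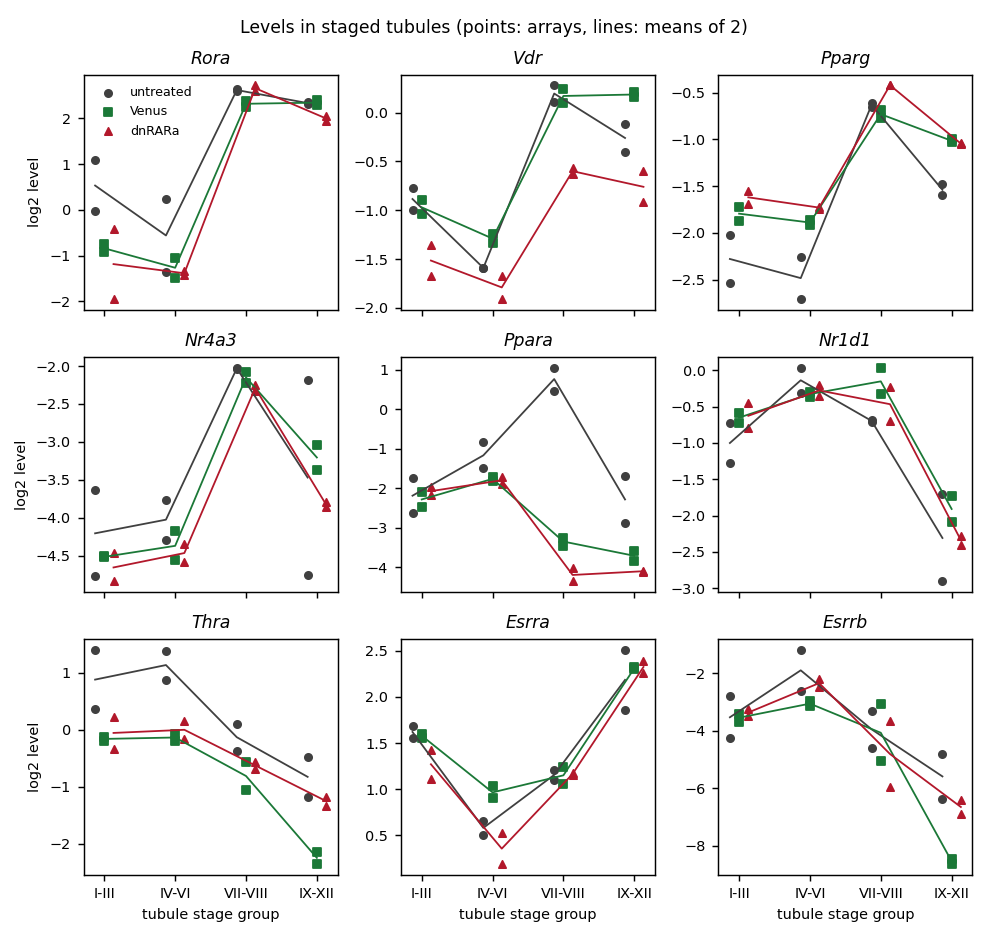
Levels (log2 relative to the array's 75th percentile) of 9 receptors by stage group in untreated, Venus and dnRARa tubules, with 1 point per array and lines through the means of 2. Rora, Vdr, Pparg and Nr4a3 step up at stages VII-VIII in all 3 arms, and Ppara at VII-VIII is high untreated (1.05 and 0.47) and low with Venus (-3.45 and -3.25).

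In cultured Sertoli cells 4 receptors were called higher with retinoic acid and none was called lower. Vdr, the vitamin D receptor, rose by 1.83, Pparg by 1.44 and Rora by 1.08 (log2), and the photoreceptor orphan Nr2e3 went from below to above background. These 4 of 22 receptors tested compare with 5.47% of all genes tested that were called in either direction, and 3.53% that were called higher (limma, adjusted p under 0.05). At an unadjusted p under 0.05, 9 of the 22 receptors passed, against 17.9% of all genes. With only the arrays compared in the model the count of called receptors was 13, for which no share of all genes is given. The count of calls thus depends on the model.

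Vdr stood at -0.17 and -0.17 with vehicle and at 1.68 and 1.64 with retinoic acid. The groups did not overlap, and the rise was 1.83 (SE 0.17, adjusted p = 0.00195). Pparg went from -2.42 and -2.48 to -0.95 and -1.07, a rise of 1.44 (SE 0.21, adjusted p = 0.0104). Rora went from -1.28 and -1.16 to -0.17 and -0.12, a rise of 1.08 (SE 0.16, adjusted p = 0.0117). In each case the difference was many times the gap between duplicates. Nr2e3, which in the retina represses cone genes, stood at -8.39 and -8.45 with vehicle, not well above background, and at -5.04 and -5.39 with retinoic acid, which gives at least a 2.58-fold rise (adjusted p = 0.0273). With normexp background correction the Nr2e3 difference was -0.07. Vdr was the single receptor whose call held when any 1 of the 4 arrays was left out. Without 1 array of the 4 at a time, the adjusted p was 0.0725 to 0.0931 for Pparg, 0.0785 to 0.109 for Rora and 0.136 to 0.171 for Nr2e3.

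Of the 18 receptors tested and not called, the bile acid receptor Nr1h4 stood at -0.04 and -0.14 and -0.63 and -0.61 (-0.53 (SE 0.13, adjusted p = 0.0743)) and its target Nr0b2 at -3.01 and -3.08 and -2.49 and -2.17 (0.72 (SE 0.19, adjusted p = 0.092)). Nr5a2, which activates steroidogenic genes, stood at -3.56 and -3.43 with vehicle and -4.89 and -4.98 with retinoic acid (-1.44 (SE 0.75, adjusted p = 0.415)). For Nr1h4, Nr0b2 and Nr5a2 the 2 groups did not overlap although the test was not passed. The same held for other uncalled receptors, among them Thra (3.83 and 3.73 against 3.14 and 3.24) and Nr3c1 (-2.34 and -2.35 against -2.78 and -2.84). No share of all genes is given for this lack of overlap, so it is not read as a result. The largest other difference was that of Nr2f2, or COUP-TFII, at -0.78 (SE 0.25, adjusted p = 0.157). A further 14 receptors were too dim to be tested. The summed level of 10 Sertoli markers was 6.32 with vehicle and 6.70 with retinoic acid. That of 5 spermatogonial markers went from 4.76 to 4.84 to 6.66 to 6.68, with 2 of 5 called higher, and its part in the receptor differences was not tested. As given above, this sum also stood at 5.35 and 4.44 in sorted knockout cells.

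The promoters of the 4 receptors that rose with retinoic acid are shown because a retinoic acid receptor heterodimer binds repeats of AGGTCA or AGTTCA half-sites. The sequences are the 250 bases upstream of a RefSeq start (build GRCm38.p6), on the strand of the gene, with each half-site on either strand in capitals. They lie at chr15:97908297-97908546 (minus strand) for Vdr, chr6:115360894-115361143 and chr6:115362099-115362348 (plus strand) for 2 of the Pparg starts, chr9:59950080-59950329 (minus strand) for Nr2e3 and chr9:68653536-68653785 (plus strand) for Rora.
Vdr: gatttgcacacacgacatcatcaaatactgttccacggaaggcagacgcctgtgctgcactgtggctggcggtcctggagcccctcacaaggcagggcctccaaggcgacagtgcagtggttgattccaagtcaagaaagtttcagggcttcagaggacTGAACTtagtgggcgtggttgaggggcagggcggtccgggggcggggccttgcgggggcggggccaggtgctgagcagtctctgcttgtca
Pparg, first start: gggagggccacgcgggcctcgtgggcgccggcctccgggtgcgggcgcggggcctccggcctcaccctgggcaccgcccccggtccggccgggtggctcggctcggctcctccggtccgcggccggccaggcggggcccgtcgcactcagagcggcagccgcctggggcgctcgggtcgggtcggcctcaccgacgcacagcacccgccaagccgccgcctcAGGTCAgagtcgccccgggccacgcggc
Pparg, second start: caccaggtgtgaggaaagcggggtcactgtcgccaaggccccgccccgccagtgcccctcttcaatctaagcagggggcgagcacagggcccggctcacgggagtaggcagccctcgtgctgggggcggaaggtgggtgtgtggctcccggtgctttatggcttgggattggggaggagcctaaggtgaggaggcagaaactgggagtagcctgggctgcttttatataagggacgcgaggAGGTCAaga
Nr2e3: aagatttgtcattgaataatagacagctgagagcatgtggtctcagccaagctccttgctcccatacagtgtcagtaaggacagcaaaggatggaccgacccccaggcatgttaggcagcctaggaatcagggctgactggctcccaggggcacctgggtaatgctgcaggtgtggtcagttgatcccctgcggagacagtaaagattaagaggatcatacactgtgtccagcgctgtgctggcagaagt
Rora: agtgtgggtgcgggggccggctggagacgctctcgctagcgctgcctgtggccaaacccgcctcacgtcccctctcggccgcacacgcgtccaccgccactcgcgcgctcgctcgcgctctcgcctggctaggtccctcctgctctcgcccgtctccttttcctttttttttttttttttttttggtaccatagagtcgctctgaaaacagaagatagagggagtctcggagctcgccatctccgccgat
The Vdr window held 1 AGTTCA match, on the reverse strand, whose first base lay 91 bases upstream of the start. Each Pparg window shown held 1 AGGTCA match, 28 and 9 bases upstream. No match was present in the Nr2e3 and Rora windows or in that of the third Pparg start. Among 32851 RefSeq promoters of the same length, 14% held AGGTCA and 11.8% held AGTTCA on either strand, against 7 and 5 of the 48 promoters that 34 of the 37 receptors had in the table. The spaced repeats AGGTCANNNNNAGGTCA, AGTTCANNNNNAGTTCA and AGGTCANNAGGTCA occurred in none of the 48. A match is a run of letters and not a measured binding site.

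**Figure D3:**
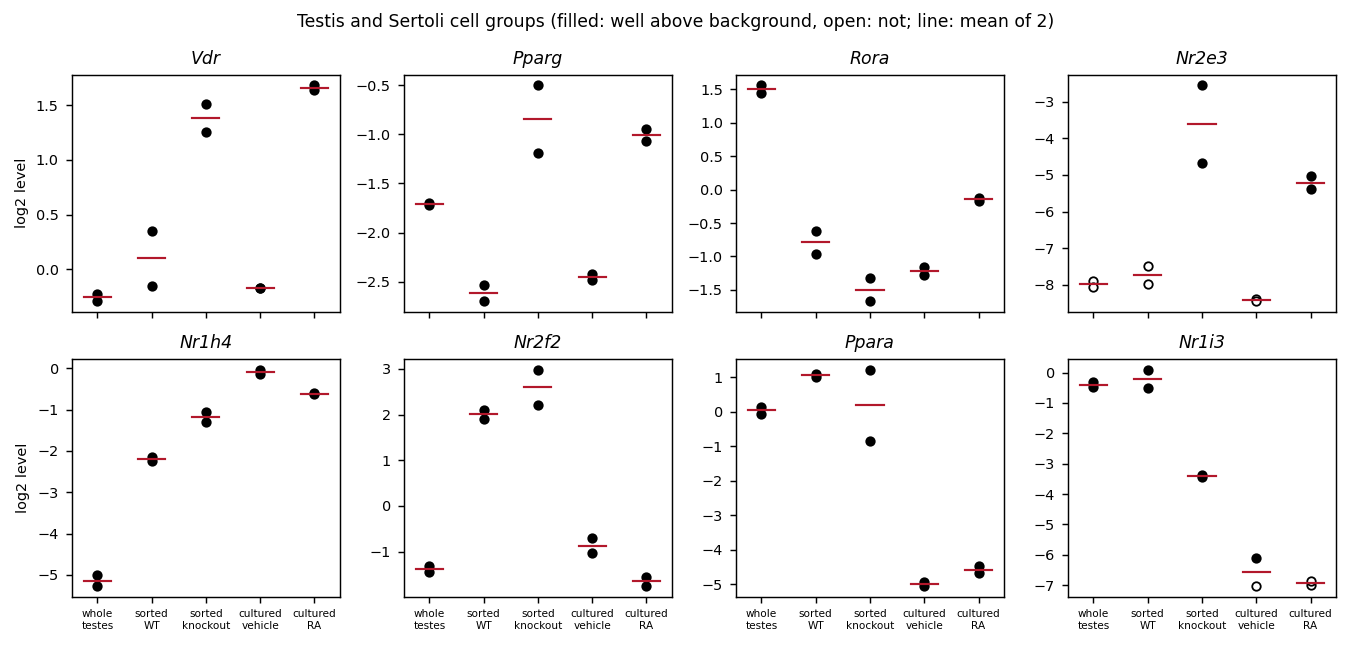
Levels (log2 relative to the array's 75th percentile) of 8 receptors in whole testes, sorted wild-type and knockout Sertoli cells and cultured Sertoli cells without and with retinoic acid, with 1 point per array and open points for arrays not well above background. The 2 retinoic acid arrays lie above the 2 vehicle arrays for Vdr (1.68 and 1.64 against -0.17 and -0.17), Pparg, Rora and Nr2e3.

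In tubules that received dnRARa, Vdr was lower than with Venus at every stage, by -0.69 on average (log2). Nr1h2 was slightly lower, and Nr1i3, Esrrg and Hnf4g were higher. These 5 of 31 receptors tested, 3 higher and 2 lower, compare with 12.3% of all genes tested, 8.3% higher and 3.98% lower (limma, mean over the 4 stages, adjusted p under 0.05), and 10 of 31 passed at an unadjusted p under 0.05, against 26.5% of genes. Of the 4 receptors that retinoic acid raised in culture, Vdr alone was called here, and Nr2e3 was above background on no virus array. No receptor of 31 had a dnRARa effect that differed between stages, against 0.768% of all genes by the same limma test, and 1 of 31 passed unadjusted, against 10.2% of genes.

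Vdr stood in dnRARa tubules at -1.36 and -1.67 at stages I-III, -1.67 and -1.91 at IV-VI, -0.57 and -0.63 at VII-VIII, and -0.92 and -0.60 at IX-XII. The Venus values given above were higher on every array of the same stage, and in the earlier stage groups both arms were lower than in the later ones. The difference averaged over stages was -0.69 (SE 0.07, adjusted p = 5.93e-05), and it ranged over the 4 stages from -1.08 to -0.32 on one scan day and from -0.80 to -0.57 on the other. With the first scan day alone the difference was -0.66 and was not called (adjusted p = 0.0865). Within dnRARa tubules Vdr still differed among stages (adjusted p = 1.68e-05).

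Nr1h2 stood at 1.19 and 1.23 at stages I-III, 1.17 and 1.16 at IV-VI, 0.97 and 1.01 at VII-VIII, and 1.09 and 1.17 at IX-XII with Venus, against the dnRARa values given above. It was lower with dnRARa by -0.20 (SE 0.05, adjusted p = 0.0117), with every stage lower on both scan days. Nr1i3, the xenobiotic receptor CAR, stood at -5.25 and -5.0 at stages I-III, -5.01 and -5.33 at IV-VI, -5.24 and -4.56 at VII-VIII, and -5.41 and -5.28 at IX-XII with Venus. With dnRARa it stood at -5.01 and -3.25 at stages I-III, -4.82 and -2.83 at IV-VI, -3.66 and -2.18 at VII-VIII, and -4.86 and -3.10 at IX-XII, and the second replicate was the higher of every pair. The mean difference was 1.42 (SE 0.39, adjusted p = 0.028), with 0.18 to 1.58 over stages on the first scan day and 1.75 to 2.49 on the second. Averaged over stages the first scan day gave 0.64, which was not called. Leaving out 1 array at a time, the Nr1i3 call was kept in 7 of 16 fits, with an adjusted p of up to 0.0796.

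Esrrg stood at -4.11 and -3.97 at stages I-III, -3.97 and -3.94 at IV-VI, -4.27 and -4.20 at VII-VIII, and -4.08 and -3.92 at IX-XII with Venus. Its dnRARa arrays stood at -3.90 and -2.76 at stages I-III, -3.94 and -2.98 at IV-VI, -4.07 and -2.73 at VII-VIII, and -3.60 and -2.83 at IX-XII, again with the second replicate of each pair higher. The mean Esrrg difference was 0.71 (SE 0.21, adjusted p = 0.0402), and on the first scan day alone 0.23, which was not called. Hnf4g, a paralog of the hepatocyte factor Hnf4a, stood at -5.63 and -6.50 at stages I-III, -6.15 and -5.78 at IV-VI, -5.83 and -5.58 at VII-VIII, and -5.64 and -5.22 at IX-XII with Venus. Its dnRARa arrays stood at -5.34 and -5.06 at stages I-III, -5.46 and -5.39 at IV-VI, -5.39 and -4.96 at VII-VIII, and -5.04 and -5.06 at IX-XII, and 1 array in each arm was not well above background. Hnf4g was higher by 0.58 (SE 0.17, adjusted p = 0.0417), and by -0.03 with normexp background correction. Leaving out 1 array at a time, the Esrrg call was kept in 4 of 16 fits, with an adjusted p of up to 0.111. Leaving out 1 array at a time, the Hnf4g call was kept in 4 of 16 fits, with an adjusted p of up to 0.104. The higher values of Nr1i3 and Esrrg thus came mainly from the arrays of 1 scan day.

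Rora, Pparg and Nr4a3 were higher on both arrays of stages VII-VIII than on both of IV-VI in dnRARa tubules as well. Rora stood there at -0.42 and -1.95 at stages I-III, -1.34 and -1.43 at IV-VI, 2.59 and 2.72 at VII-VIII, and 2.05 and 1.94 at IX-XII. Pparg stood at -1.55 and -1.69 at stages I-III, -1.72 and -1.74 at IV-VI, -0.42 and -0.42 at VII-VIII, and -1.04 and -1.05 at IX-XII. Nr4a3 stood at -4.47 and -4.84 at stages I-III, -4.35 and -4.58 at IV-VI, -2.33 and -2.25 at VII-VIII, and -3.79 and -3.86 at IX-XII. Against Venus, Rora differed by -0.12 (SE 0.24, adjusted p = 0.815) and Pparg by 0.15 (SE 0.08, adjusted p = 0.223), neither of them called. Thra at stages IX-XII was -1.33 and -1.17 with dnRARa against -2.35 and -2.14 with Venus, a gap the stage test did not call (adjusted p = 0.834). The summed level of 6 Leydig markers was 0.62 to 2.12 with dnRARa against 1.33 to 3.32 with Venus, with 1 of 5 tested called lower. That of 4 peritubular myoid markers was 3.32 to 4.64 against 3.95 to 4.87, with 3 of 5 tested called lower, and the part of either list in these differences was not tested.

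The other receptors called among the stages of dnRARa tubules ran as follows there. Thra stood at -0.34 and 0.23 at stages I-III, -0.16 and 0.16 at IV-VI, -0.68 and -0.57 at VII-VIII, and -1.33 and -1.17 at IX-XII, and Nr1d1 at -0.80 and -0.45 at stages I-III, -0.20 and -0.35 at IV-VI, -0.23 and -0.70 at VII-VIII, and -2.28 and -2.40 at IX-XII. Both were lowest at IX-XII, as in the other arms. Esrra stood at 1.43 and 1.11 at stages I-III, 0.52 and 0.19 at IV-VI, 1.18 and 1.15 at VII-VIII, and 2.39 and 2.26 at IX-XII, highest at IX-XII. Esrrb stood at -3.47 and -3.25 at stages I-III, -2.19 and -2.48 at IV-VI, -3.64 and -5.97 at VII-VIII, and -6.90 and -6.40 at IX-XII, highest at IV-VI, and the second VII-VIII and first IX-XII arrays were not well above background. Esr1 stood at -3.97 and -4.14 at stages I-III, -3.57 and -3.39 at IV-VI, -3.09 and -3.18 at VII-VIII, and -3.75 and -3.76 at IX-XII, with both VII-VIII arrays above the rest.

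Nr1h3 stood with dnRARa at 0.93 and 0.96 at stages I-III, 0.62 and 0.55 at IV-VI, 0.27 and 0.38 at VII-VIII, and 1.05 and 1.10 at IX-XII, and Nr2c1 at 0.82 and 0.66 at stages I-III, 0.50 and 0.29 at IV-VI, 0.31 and 0.07 at VII-VIII, and 1.18 and 1.06 at IX-XII. Both had their lowest mean at VII-VIII and their highest at IX-XII. Nr4a2 stood at -3.40 and -3.61 at stages I-III, -4.01 and -4.31 at IV-VI, -4.60 and -4.39 at VII-VIII, and -3.03 and -3.12 at IX-XII, with both VII-VIII arrays below all others. Nr6a1 stood at 2.07 and 2.11 at stages I-III, 2.09 and 1.86 at IV-VI, 1.33 and 0.80 at VII-VIII, and 1.61 and 1.49 at IX-XII, and its later arrays lay below its earlier ones. Nr2f6 stood at 0.27 and 0.41 at stages I-III, -0.11 and 0.19 at IV-VI, -0.74 and -0.14 at VII-VIII, and -0.49 and -0.22 at IX-XII, with overlap between the later stage groups. Nr2e1 stood at -6.79 and -5.31 at stages I-III, -5.65 and -4.46 at IV-VI, -5.93 and -5.27 at VII-VIII, and -8.73 and -7.08 at IX-XII, where the first array of I-III and both of IX-XII were not well above background.

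**Figure D4:**
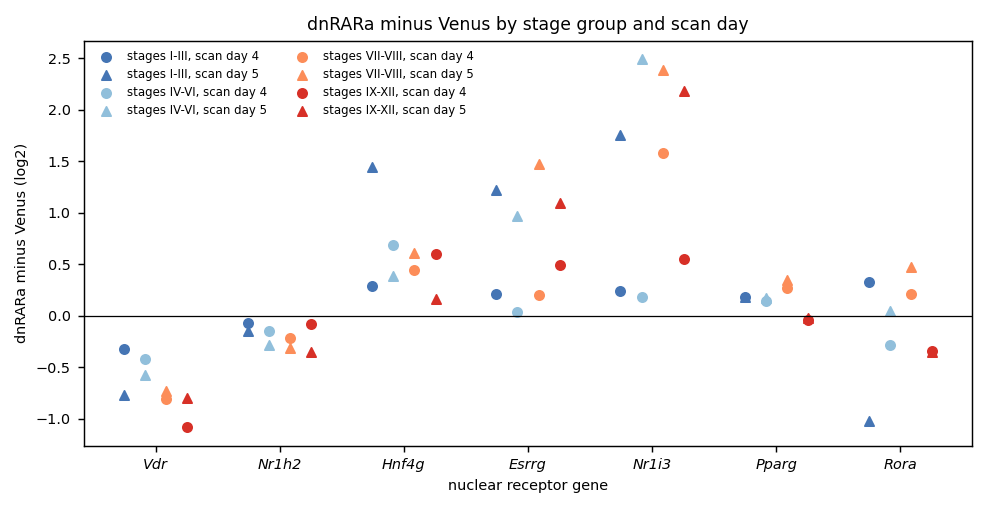
Difference between dnRARa and Venus tubules (log2) for 7 receptors, with 1 point per stage and scan day. All 8 Vdr points lie below 0 and all 8 Nr1i3 and Esrrg points above it, with the second scan day higher for Nr1i3 and Esrrg, while the Pparg and Rora points lie on both sides of 0.

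Sorted wild-type Sertoli cells differed from whole testes in most receptors. The COUP-TF receptors Nr2f2 and Nr2f6, the bile acid receptor Nr1h4, the glucocorticoid receptor Nr3c1 and Nr1d2 had the largest called rises in sorted cells by the probe chosen for each gene, and Nr4a3, Nr6a1, Nr2c1, Nr1i2 and Rora the largest falls. Other probes differed: a second Esr1 probe, above background on all 4 arrays, was higher by 4.64 where the chosen one differed by 0.39, and a second Esrrg probe, above background on 2 of the 4 arrays, by 5.30 where the chosen one differed by -0.62. In all, 21 of 28 receptors were called, 10 higher and 11 lower, against 79.2% of all genes tested, a similar share, with 38.3% higher and 40.9% lower (limma).

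Nr2f2, which marks interstitial and mesenchymal cells in many organs, stood at -1.45 and -1.32 in whole testes and 2.10 and 1.91 in sorted cells (3.39 (SE 0.26, adjusted p = 2.01e-05)). Nr2f6 stood at 0.07 and 0.08 and 2.50 and 2.59 (2.47 (SE 0.14, adjusted p = 5.57e-06)). Nr1h4, the bile acid receptor FXR, stood at -5.01 and -5.26 and -2.14 and -2.24 (2.94 (SE 0.14, adjusted p = 2.99e-06)). None of these groups overlapped. Nr3c1 stood at -6.36 and -5.57 and -2.89 and -3.22 (2.91 (SE 0.44, adjusted p = 0.000658)), with 1 of the whole-testis arrays not well above background. Another Nr3c1 probe, above background on all 4 arrays, differed by -0.04. Nr1d2 stood at -1.66 and -1.79 and 0.30 and 0.13 (1.94 (SE 0.31, adjusted p = 0.000965)). Thrb and Nr0b2 were not well above background in whole testes and were at least 3.4-fold and 1.77-fold higher in sorted cells (adjusted p = 0.00198 and adjusted p = 0.00126).

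Among the receptors that were lower in sorted cells, Nr4a3 stood at -2.49 and -2.60 in whole testes and at -7.19 and -6.95, not well above background, in sorted cells, at least 8.42-fold lower (adjusted p = 1.54e-06). Nr6a1 stood at 1.92 and 1.91 and -0.71 and -1.06 (-2.80 (SE 0.41, adjusted p = 0.000539)). Nr2c1 stood at 1.33 and 1.28 and -1.14 and -1.31 (-2.53 (SE 0.17, adjusted p = 1.25e-05)). Nr6a1 and Nr2c1 are the receptors named above as known from germ cells. Rora stood at 1.56 and 1.44 and -0.62 and -0.96 (-2.29 (SE 0.16, adjusted p = 1.58e-05)), and Nr1i2, the xenobiotic receptor PXR, at -5.30 and -5.26 and, not well above background, -7.89 and -7.47, at least 1.26-fold lower (adjusted p = 9.21e-05). The summed level of 6 Leydig markers was 5.02 in whole testes and 9.10 to 9.26 in sorted cells, that of 6 endothelial markers 0.54 to 0.59 and 4.09 to 4.65, and that of 10 Sertoli markers 3.94 and 4.76 to 5.28. Markers of Leydig and endothelial cells were thus more enriched in the sorted cells than Sertoli markers. Of the germ cell lists, 6 of 6 spermatid and 5 of 6 spermatocyte markers were called lower in sorted cells (medians -2.44 and -3.6). Of 5 spermatogonial markers 3 were called lower and 1 higher. The summed level of 6 spermatid markers was 11.09 to 11.22 in whole testes and still 8.84 to 9.5 in sorted cells. The part of all these lists in the receptor differences was not tested.

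Sertoli cells sorted from Nanos3 knockout testes had higher Nr2e3, Pparg, Vdr, Nr0b2 and Nr1h4 than wild-type cells and lower Nr1i3, Nr6a1, Esrrb, Nr2c2 and Nr2c1. Of 27 receptors tested 14 were called, 8 higher and 6 lower, against 48.8% of all genes, 26.2% higher and 22.6% lower (limma). With median scaling the split was 14 higher and 5 lower. Of the 4 receptors called higher with retinoic acid in culture, Vdr, Pparg and Nr2e3 were called higher here and Rora lower (-0.71 (SE 0.16, adjusted p = 0.0107)). No share over all genes is given for this overlap, so it is not read as particular to the receptors. The Rora call was lost without sorted wild type replicate 1 (adjusted p = 0.0559).

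Nr2e3 stood at -2.55 and -4.66 in knockout cells and at -7.98 and -7.49, not well above background, in wild-type cells, at least 4.03-fold higher (adjusted p = 0.00141). Pparg stood at -2.53 and -2.70 in wild-type and -1.19 and -0.50 in knockout cells (1.77 (SE 0.21, adjusted p = 0.000544)). Vdr stood at -0.15 and 0.35 and 1.25 and 1.51 (1.28 (SE 0.18, adjusted p = 0.00109)). No arrays of the 2 groups overlapped for these receptors. The Nr2e3 bound was 1.94-fold without knockout replicate 1 and 8.37-fold without replicate 2. Nr0b2 stood at -4.89 and -4.96 and -3.63 and -3.97 (1.13 (SE 0.19, adjusted p = 0.00317)), and Nr1h4 at -2.14 and -2.24 and -1.30 and -1.05 (1.01 (SE 0.13, adjusted p = 0.000882)).

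Nr1i3 stood at 0.09 and -0.51 in wild-type and -3.45 and -3.36 in knockout cells (-3.20 (SE 0.32, adjusted p = 0.000189)). Nr6a1 stood at -0.71 and -1.06 and -3.22 and -4.63 (-3.04 (SE 0.40, adjusted p = 0.000904)), and Nr2c1 at -1.14 and -1.31 and -2.15 and -2.66 (-1.18 (SE 0.17, adjusted p = 0.00136)). Nr2c2 stood at -2.53 and -2.55 and -3.33 and -4.43 (-1.34 (SE 0.31, adjusted p = 0.0112)); the difference was -0.01 with normexp background correction. The Nr2c2 call was lost without sorted wild type replicate 1 (adjusted p = 0.0549). Esrrb stood at -4.19 and -3.98 in wild-type and at -6.52 and -7.28, not well above background, in knockout cells, at least 2.87-fold lower (adjusted p = 0.0002). The 2 knockout arrays differed widely for Ppara (1.22 and -0.85), which was not called. The summed level of 6 spermatid markers was 8.84 to 9.5 in wild-type and -1.85 to -1.59 in knockout cells, and that of 6 macrophage markers 2.05 to 2.98 and 4.48 to 6.68. The part of either in these differences was not tested.

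Between cultured and freshly sorted Sertoli cells, receptors were called less often than genes in general (53.8% of those tested). The share called lower in culture was near that of all genes. Of 26 receptors 14 were called, 3 higher and 11 lower, against 74.8% of all genes, 31.9% higher and 42.9% lower (limma). The median difference over all genes tested was -0.215, and it was 0.747 with median scaling, under which 15 receptors were called higher and 7 lower, so the split depends on the scaling. Nr1h4 stood at -2.14 and -2.24 in sorted and -0.04 and -0.14 in cultured cells (2.10 (SE 0.14, adjusted p = 1.19e-05)). Nr0b2, a target of Nr1h4, stood at -4.89 and -4.96 and -3.01 and -3.08 (1.88 (SE 0.20, adjusted p = 0.000122)), and Thra at 2.21 and 2.27 and 3.83 and 3.73 (1.54 (SE 0.25, adjusted p = 0.00107)). The groups did not overlap for Nr1h4, Nr0b2 and Thra.

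Ppara stood at 1.01 and 1.11 in sorted and -5.05 and -4.95 in cultured cells (-6.06 (SE 0.58, adjusted p = 7.63e-05)). Nr1i3 stood at 0.09 and -0.51 and -6.11 and -7.02 (-6.36 (SE 0.32, adjusted p = 3.79e-06)), with 1 cultured array not well above background. Esrrb stood at -4.19 and -3.98 in sorted and -8.44 and -8.51 in cultured cells and Thrb at -4.09 and -4.01 and -7.58 and -8.29. Both were not well above background in culture and were at least 5.64-fold and 5.77-fold lower there (adjusted p = 1.17e-05 and adjusted p = 5.61e-05). Esr1 was lower in culture (-8.91 and -8.91, not well above background with its chosen probe) than in sorted cells (-4.0 and -3.82) by at least 6.37-fold (adjusted p = 2.25e-07), and differed by -6.81 with a second probe that was above background on all 4 arrays. Nr2f2 also fell, from 2.10 and 1.91 to -1.04 and -0.70 (-2.88 (SE 0.26, adjusted p = 5.68e-05)). The summed level of 6 Leydig markers was 9.10 to 9.26 in sorted and 3.42 to 3.54 in cultured cells, and that of 6 endothelial markers 4.09 to 4.65 and -0.52 to -0.48. Their part in the lower receptor levels was not tested.

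Venus tubules differed from untreated ones in 22 of 31 receptors, 13 higher and 9 lower, against 66.9% of all genes, 36.3% higher and 30.6% lower (limma, mean over stages). The 2 arms were hybridised to different versions of the array design as well as on different slides and days, so group and batch cannot be told apart. Nr1h3 was higher by 2.33 (SE 0.06, adjusted p = 2.8e-13), and Nr2c2 by 0.97. Nr2c2 stood at -1.29 and -1.30 at stages I-III, -1.09 and -1.17 at IV-VI, -1.14 and -1.26 at VII-VIII, and -0.99 and -2.47 at IX-XII untreated. With Venus Nr2c2 stood at -0.75 and -0.81 at stages I-III, -0.45 and -0.52 at IV-VI, 0.17 and 0.10 at VII-VIII, and -0.42 and -0.25 at IX-XII, above every untreated array. Of the 13 called higher, Ppard, Nr1h4, Hnf4g and Nr0b2 were well above background on no untreated array. Their Venus means did not exceed the lowest signal well above background of the untreated arrays, so no fold is given for them. Nr1h4 stood at -6.68 and -6.34 at stages I-III, -6.86 and -7.22 at IV-VI, -6.86 and -6.82 at VII-VIII, and -6.83 and -6.26 at IX-XII untreated. With Venus Nr1h4 stood at -5.69 and -5.40 at stages I-III, -5.73 and -4.55 at IV-VI, -5.29 and -4.97 at VII-VIII, and -5.32 and -4.74 at IX-XII. Nr0b2 stood at -6.44 and -6.66 at stages I-III, -6.62 and -7.10 at IV-VI, -7.28 and -7.11 at VII-VIII, and -6.07 and -5.54 at IX-XII untreated. With Venus Nr0b2 stood at -4.98 and -5.21 at stages I-III, -5.89 and -5.77 at IV-VI, -6.40 and -6.12 at VII-VIII, and -5.75 and -5.31 at IX-XII. The untreated Hnf4g arrays stood at -7.66 and -6.40 at stages I-III, -6.92 and -7.21 at IV-VI, -6.48 and -6.86 at VII-VIII, and -6.51 and -6.42 at IX-XII, against the Venus values given above. Nr1i3 differed by -3.97 (SE 0.39, adjusted p = 5.61e-07); its untreated arrays stood at -1.88 and -0.63 at stages I-III, -1.69 and -0.65 at IV-VI, -0.95 and -1.04 at VII-VIII, and -1.85 and -0.65 at IX-XII. Ppara, Nr4a2, Thra and Esrrb differed by -1.55, -1.18, -1.10 and -1.06 (log2). With normexp background correction the split was 4 higher and 15 lower. Of the 13 called higher, Nr1h4, Hnf4g, Nr0b2, Esr1, Hnf4a, Nr1i2 and Ppard changed sign. Of the marker lists, 10 of 11 Sertoli, 5 of 5 peritubular myoid and 5 of 6 macrophage markers were called higher with Venus, with median differences of 0.69, 0.79 and 1.37. The summed Sertoli level was 4.21 to 5.37 with Venus and 3.52 to 4.91 untreated, and that of macrophages 0.45 to 1.52 and -0.90 to 0.78. Their part in the receptor differences was not tested.

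Other genes of the receptors' pathways were counted in lists. With retinoic acid, 3 of 15 PPAR targets rose (Fabp3 by 1.70, Fabp4 by 1.66 and Cpt1a by 0.98) and none fell, with a median difference of 0.24 over the list against 0.01 over all genes. Over all genes tested 3.53% were called higher and 1.94% lower. Fabp3 and Fabp4 carry fatty acids and Cpt1a admits them to mitochondria. Of 17 circadian clock genes 2 rose (Dbp by 2.13 and Npas2 by 2.14), 1 with quantile scaling and 0 with median scaling, where 2 passed limma at an unadjusted p under 0.05. Among 21 coregulators Ppargc1b alone was called, at -0.95. Of 10 liver X receptor targets none was called by limma, and 3 passed at an unadjusted p under 0.05, against 17.9% of all genes. Of the thyroid hormone responsive genes, Klf9 rose by 1.12 and Thrsp fell by 1.36. Klf9 was also the single glucocorticoid target called of 11.

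With dnRARa against Venus, 2 of 17 PPAR targets were lower (Acadm at -0.41 and Cpt1a at -0.32), 1 of 17 clock genes was lower (Dbp at -0.53), and 2 of 12 liver X receptor targets were lower (Fasn at -0.28 and Srebf1 at -0.25). Cpt1a and Dbp had been called higher with retinoic acid in culture. With normexp background correction none of these PPAR and liver X receptor targets was called, with 3 and 4 genes of the 2 lists at an unadjusted p under 0.05 (limma). Among coregulators 2 of 21 were higher (Ep300 and Med1), 1 with quantile and 0 with median scaling (4 unadjusted). Of 11 glucocorticoid targets 2 were higher and 2 lower. Over all genes tested with dnRARa against Venus, 8.3% were called higher and 3.98% lower, so the coregulator count lies near that share. From stages IV-VI to VII-VIII, 2 of 6 genes of thyroid hormone handling and response were called higher untreated and 3 of 8 with Venus, with medians of 0.37 and 0.04. In this step 22.1% of all genes were called higher and 20.3% lower untreated, and 15.9% and 17.2% with Venus. Hr, a corepressor, rose by 3.13 untreated and 1.79 with Venus, and Dio2, which activates thyroid hormone, by 1.61 and 1.65. Of 11 glucocorticoid targets 4 rose untreated and 3 with Venus, led by Dusp1 (1.47 and 1.81), and none fell. Clock genes split into 7 higher and 4 lower of 15 untreated and 5 higher and 7 lower of 17 with Venus, with Per1 higher (1.48 and 1.10) and Bhlhe40 lower (-1.58 and -1.46). In culture all 16 PPAR targets tested were called lower than in sorted cells, with a median of -2.14. With median scaling 12 of the 16 were called, with a median of -1.17. Of the PPAR targets, 14 of 16 were called higher in sorted cells than in whole testes, against 38.3% of all genes, and 42.9% of genes were lower in culture. All 6 Leydig and all 6 endothelial markers were likewise called higher in sorted cells than in whole testes and lower in culture than in sorted cells, and their part in the PPAR target differences was not tested.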

How the data were processed

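Total RNA from 34 samples in 17 groups of 2 was labelled with Cy3 from 0.20 µg, per the labels' protocols, and hybridised to 1-colour Agilent mouse arrays in 2 design versions that share their probes. The deposited files hold each spot's processed signal, an intensity already corrected for background and multiplicative trend, with outlier and saturation flags and 0/1 marks for signal well above background; the scanner software was Feature Extraction 9.5.3.1, per the file headers, and 9.5 per the submitters' processing notes. The authors' deposited value table held the same intensity values (ratio 1) and added no normalization. Further steps by the authors are not given in the sources used here.

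After 1639 control spots and between 32 and 274 spots with outlier flags per array were left out, the spots of a probe were averaged, log2 was taken and each array's 75th percentile was subtracted. This log2 level was computed here from the deposited intensities. The 41174 probes gave 33194 gene names, 16632 of them symbols, and 89 probes whose symbol differs between the design versions stayed unnamed. A gene was represented by its probe with the highest mean level. A gene entered a test if any compared group had it well above background in duplicate. Levels were compared with limma 3.58.1 (lmFit and eBayes, R 4.3.3) in 2 models, 1 for the 5 groups of testis or Sertoli cells (10 arrays) and 1 for the 12 tubule groups (24 arrays). P-values were adjusted by Benjamini-Hochberg over all genes tested in a comparison, with a threshold of 0.05. Models were first tested on simulated data. Nr5a2 had an outlier flag on sorted wild-type replicate 1, and its fits there used the other array.

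All 37 receptors are accounted for. A receptor is given on every array where it was called with retinoic acid, among stages or with dnRARa, or was among the 5 largest rises or falls elsewhere, and at most 3 genes are named per pathway list by smallest adjusted p. The receptors, pathway lists and marker lists were chosen with earlier results of these data known. Promoters came from a RefSeq table for build GRCm38.p6. Alternatives were quantile scaling, median scaling, normexp background correction (offset 50), no detection filter, the mean of detected probes, other models and blocks, and leaving out each array; 5 comparisons between stage groups and arms, and the scaling alternatives for pathway lists, were added after seeing the data. The number of arrays limits the precision. Nr3c2 was not analysed here. A gene of the pathway lists is not reported here.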

Additional observations from a re-analysis of the deposited data

Results flagged for a closer look

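Ppara was singled out because its stage differences were not the same in Venus and untreated tubules, by a limma contrast of the contrasts that was added after seeing the data. For stages VII-VIII against IV-VI, the Venus difference minus the untreated difference was -3.52 (SE 0.50, adjusted p = 0.00444), and Ppara was the single receptor called of 30 tested, against 0.523% of all genes. At an unadjusted p under 0.05, 5 of the 30 passed, against 9.38% of all genes. For stages IX-XII against VII-VIII the corresponding difference was 2.69 (SE 0.50, adjusted p = 0.0135), with 1 receptor called of 31, against 1.32% of all genes, and 8 of the 31 passed unadjusted, against 10.9% of all genes.

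All 4 arrays compared moved one way in each arm: untreated Ppara was higher on both VII-VIII arrays than on both IV-VI arrays, and Venus Ppara was lower. With only the arrays compared in the model, neither Ppara difference passed the threshold (adjusted p = 0.0622 and 0.183). The second was also lost without VII-VIII untreated replicate 1 (adjusted p = 0.0502) and without IX-XII Venus replicate 2 (adjusted p = 0.0705). Untreated and Venus tubules were hybridised on different slides, days and design versions, so virus and batch cannot be told apart.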

How the results depend on the processing

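Over all settings 8366 values of single receptors were recomputed, of which 7889 kept their direction and side of the threshold, 328 lost and 125 gained a call, and 24 reversed. The reversed values were Esrrg in sorted cells against whole testes with the mean of probes (2.34); in knockout against wild-type cells, Esr1 with quantile scaling (0.44), Nr1h3 with median scaling (0.60), Hnf4a with normexp (1.36), and Nr1d1 (-0.45) and Nr5a2 (0.63) without knockout replicate 2 (0.95 and -1.95 without knockout replicate 1); in cultured against sorted cells, Hnf4a with quantile scaling (0.10) and Esrra, Nr2c1, Rora and Vdr with median scaling (0.94, 0.77, 0.53 and 0.69); Nr2e3 with retinoic acid under normexp (-0.07); Nr3c1 at IX-XII untreated with the mean of probes (0.00); Nr2e1 at IX-XII with Venus under normexp (0.44); Hnf4g with dnRARa under normexp (-0.03); and, for Venus against untreated under normexp, Esr1 (-0.31), Hnf4a (-0.45), Hnf4g (-0.84), Nr0b2 (-0.66), Nr1h4 (-0.52), Nr1i2 (-0.71), Nr3c1 (-0.57), Nr5a2 (-0.83) and Ppard (-0.67). The median of all genes shifted with the scaling: for cultured against sorted cells from -0.215 to 0.747 with median and 0.109 with quantile scaling, where 7 receptors were higher and 8 lower, and for knockout against wild type from 0.073 to 0.689, 0.252 and, with normexp, 0.270. For Venus against untreated it went from 0.058 to -0.323 with normexp.

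Counts of receptors called moved by over 1.5 times as follows, and the cause was not tested. No share of all genes is given beside the counts of this paragraph, so their moves are not read as particular to the receptors. With only the arrays compared, the counts were 8 for knockout, 13 for retinoic acid, 5 for untreated and 15 for Venus IX-XII against VII-VIII, 11 for dnRARa, and 0 for both Venus-minus-untreated contrasts. Normexp gave 8 for cultured cells, 6 and 8 for the untreated steps to VII-VIII and IX-XII, 5 for the Venus step to IX-XII and 1 for dnRARa. Median scaling gave 22 for cultured cells. For dnRARa the count was 3 with quantile scaling, no filter or a random slide block, and 1 within the first scan day. Leaving out 1 array gave 15 to 18 calls for sorted cells, 9 (without sorted wild-type replicate 1) to 24 (without knockout replicate 1) for knockout, 12 to 14 for culture, 1 to 1 for retinoic acid, 13 to 19, 16 to 17 and 15 to 18 among untreated, Venus and dnRARa stages, 9 to 12 and 9 to 15 for the untreated steps, 9 to 10 and 8 to 9 for the Venus steps, 2 to 5 for dnRARa, 0 to 0 for its stage dependence, 18 to 25 for Venus against untreated, and 1 to 2 and 0 to 3 for the Venus-minus-untreated contrasts.

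The replicate numbers are not stated to pair samples. Same-numbered samples deviated together with a median correlation of 0.159 in the virus arms (-0.13 to 0.684) and 0.404 in untreated tubules (0.286 to 0.728). In the testis and Sertoli cell groups the median was -0.0109 (-0.1 to 0.15). Same-numbered samples of the virus arms also shared a scan day, and within an arm a slide. The main fits take all arrays as independent, so their p-values do not allow for such shared deviations. With the replicate block the first Venus-minus-untreated contrast had 2 calls, and no other count moved by over 1.5 times.

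Signal over background limits 14 receptors in culture and 13 or 14 in untreated tubules, which were too dim to test. With 2 arrays per group a single array decides many calls.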
